A study of Mus musculus with 18 samples.

Results

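Megakaryocyte and platelet genes were followed here in early hematopoietic progenitors of mouse bone marrow: Pf4, Ppbp, Itga2b, Itgb3, Gp1bb, Gp9, Vwf and Treml1. These 8 genes were taken by symbol from the expression tables, and were chosen with earlier results of these data known. They are 8 of 19710 genes listed for multipotent progenitors (MPPs), 8 of 19710 for CD115- common dendritic cell progenitors (CD115- CDPs) and 8 of 18378 for common lymphoid progenitors (CLPs). For each population there were 3 RNA-seq libraries of WT and 3 of KO mice, 18 libraries in all. All mice were Trim33fl/fl on a C57BL/6 background, 6 to 8 weeks old and treated with tamoxifen. The KO mice also carried Cre-ERT2, a recombinase that tamoxifen switches on in all cells and that removes exons 2 to 4 of Trim33, which encodes a chromatin-binding regulator of transcription. The WT mice carried no Cre, so Cre activity and Trim33 deletion cannot be told apart. The labels do not say whether each library came from a single mouse, so p-values measure the spread between these samples. The sorting gates were Lin- Sca-1+ CD117+ CD34+ FLT3+ for MPPs, Lin- CD11c- FLT3+ CD117int CD115- CD127- for CD115- CDPs, and Lin- CD11c- Sca-1+ CD117+ CD127+ FLT3+ for CLPs. The antibody mixture that defined Lin- held none against CD41 or CD61, the products of Itga2b and Itgb3.

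Megakaryocytes are the bone marrow cells that release platelets. They arise from stem cells and early progenitors along a branch shared with red cells, and part of their program, such as Itga2b, is already transcribed at a low level in uncommitted progenitors. Itga2b and Itgb3 encode the subunits of the fibrinogen receptor that holds platelets together in a clot. Gp1bb and Gp9 encode subunits of the receptor that binds von Willebrand factor, the product of Vwf. Pf4 and Ppbp encode chemokines stored in platelet α-granules, and Treml1 encodes a receptor of the α-granule membrane. GATA, ETS and RUNX factors are the known activators of this lineage, and their binding motifs are common at its promoters.

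Promoters are shown for the members on which the comparisons below turn, as far as the RefSeq promoter table held them (6 of the 8 genes matched, all but Itgb3 and Vwf). Each sequence is a window of GRCm38.p6, the mm10 assembly, from 250 bases before to 50 bases after the RefSeq start site, on the strand of the gene. Capitals mark matches on either strand to a GATA motif (AGATAA or AGATAG or TGATAA or TGATAG) or an ETS motif (AGGAAG or CGGAAG). Pf4, chr5:90772185-90772484, plus strand, the granule chemokine whose level in WT MPPs came next to that of Itga2b:
Pf4: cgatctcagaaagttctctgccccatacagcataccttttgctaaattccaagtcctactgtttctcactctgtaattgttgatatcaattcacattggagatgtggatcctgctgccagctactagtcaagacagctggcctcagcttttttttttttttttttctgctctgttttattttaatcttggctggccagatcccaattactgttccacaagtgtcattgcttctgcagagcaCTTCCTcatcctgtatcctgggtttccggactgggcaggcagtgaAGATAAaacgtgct
Itga2b, chr11:102469834-102470133, minus strand, the member that passed the test in MPPs:
Itga2b: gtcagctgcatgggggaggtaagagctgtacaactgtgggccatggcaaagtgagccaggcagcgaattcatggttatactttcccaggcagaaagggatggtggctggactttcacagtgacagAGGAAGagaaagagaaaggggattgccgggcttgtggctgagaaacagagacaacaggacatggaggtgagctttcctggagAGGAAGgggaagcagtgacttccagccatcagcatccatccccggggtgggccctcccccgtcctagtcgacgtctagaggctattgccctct
Gp9, chr6:87777820-87778119, plus strand, a member whose genotype difference differed between the populations. The start site of this window lies 1939 bases inside the annotated gene, so it is not the outermost one:
Gp9: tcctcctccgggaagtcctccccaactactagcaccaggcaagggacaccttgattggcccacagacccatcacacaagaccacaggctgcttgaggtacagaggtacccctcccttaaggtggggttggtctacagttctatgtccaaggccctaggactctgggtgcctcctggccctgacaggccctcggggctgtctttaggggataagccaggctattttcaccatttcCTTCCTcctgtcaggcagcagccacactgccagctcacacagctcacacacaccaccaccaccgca

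The Pf4 window held 1 GATA match, beginning 36 bases after the start site, and 1 ETS match, beginning 9 bases before it. The Itga2b window held 2 ETS matches and no GATA match. In the Gp9 window 1 ETS match lay 16 bases before the start site, and 1 match to the RUNX motif TGTGGT, not capitalised, lay 171 bases before it. Of the windows not shown, that of Gp1bb held 1 GATA and 2 ETS matches, and those of Ppbp and Treml1 held none of the 3 motifs. No matches of different motifs overlapped. Among all 32851 windows of the same length, 29.8% held the GATA motif, 46.5% the ETS motif and 16.8% the RUNX motif, so these matches are a description of the sequences and not evidence of binding. In the same assembly Pf4 (chr5:90772435-90773383) and Ppbp (chr5:90768518-90770063) are neighbours 2372 bases apart. Itga2b (chr11:102453297-102469883) and Itgb3 (chr11:104608000-104670476) lie on one chromosome, as do Gp9 (chr6:87776131-87779786) and Vwf (chr6:125552948-125686679). Treml1 lies at chr17:48359916-48367176. Gp1bb (chr16:18620319-18622403) overlaps Septin5, and the sources used here do not say how reads in the overlap were assigned, so its values are uncertain.

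The values are FPKM, read fragments scaled to the length of the transcript and to the number of mapped reads of the library. From the steps between low values, the mapped reads of a library were estimated at 19.2 to 21.3 M. Trim33 itself was at 10.42, 10.12 and 8.78 FPKM in the WT MPP libraries and at 9.71, 11.66 and 4.80 in those labelled KO, with a log2 fold change of -0.22 (SE 0.289, limma adjusted p = 0.630). It was at 14.30, 15.23 and 8.27 against 9.64, 8.28 and 4.03 FPKM in CD115- CDPs (log2 fold change -0.74, SE 0.358, limma adjusted p = 0.528, and SE 0.123, adjusted p = 0.0258 in the fit blocked on replicate number) and at 12.36, 7.01 and 8.86 against 7.52, 5.60 and 7.66 FPKM in CLPs (log2 fold change -0.37, SE 0.199, limma adjusted p = 0.255). The whole gene is counted and only exons 2 to 4 are deleted, so this level does not check the deletion, and the libraries are named here by their label. Every listed gene of a population's sorting gate was above 0 in all of its libraries. For CD115- CDPs these included genes of markers that the gate excludes, so this does not check the sort. Csf1r (CD115) was at 39.11 to 136.77 FPKM in WT and 9.24 to 37.18 FPKM in KO-labelled CD115- CDPs. Itgax (CD11c) was at 15.72 to 23.29 against 4.27 to 5.37 FPKM, and Il7r (CD127) at 5.34 to 20.60 against 3.17 to 11.26 FPKM. In CLPs, also sorted as CD11c-, Itgax was at 54.80 to 69.66 against 5.36 to 7.47 FPKM. The replicate 3 libraries of CD115- CDPs, both WT and labelled KO, stood apart: their summed FPKM over 9 neutrophil genes was 4510 and 4443, against 695 to 1063 in the other CD115- CDP libraries. KO replicate 3 of MPPs also stood apart from KO replicates 1 and 2. Its summed FPKM was 1469 over 7 genes listed for CLPs (Il7r, Flt3, Ly6a, Kit, Rag1, Dntt and Ly6d), against 861 and 752. Over 17 transcription factors of the megakaryocyte lineage it was 970, against 691 and 656. Over the neutrophil genes KO replicate 1 was the highest, at 2584, against 1565 in KO replicate 2 and 1649 in KO replicate 3.

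All 8 members were low in these progenitors. Their summed level was 23.8 to 25.4 FPKM in WT MPPs, 7.64 to 10.8 FPKM in WT CD115- CDPs and 11.0 to 13.9 FPKM in WT CLPs. Further genes of the platelet surface spanned a wide range. Of 17 listed for MPPs, 11 had a mean of at least 0.5 FPKM, and the 17 together summed to 110 to 114 FPKM in WT MPPs. Gp6, the platelet collagen receptor, was listed at 0 in every MPP and CD115- CDP library, and Clec1b, a platelet lectin receptor, reached at most 0.18 FPKM in any library. At the other end, the WT MPP mean was 31.9 FPKM for Pear1, a platelet adhesion receptor, 20.9 FPKM for Cd9, a tetraspanin of many cell types, and 20.8 FPKM for Tbxa2r, the thromboxane receptor. The 3 tables may have been normalised separately, so levels set across populations are a description with no test. Of the 8 genes, 7 were highest in WT MPPs, and Itgb3 was highest in WT CLPs. Pf4, Itga2b, Itgb3 and Gp9 had a mean of at least 0.5 FPKM in each population and entered the tests, and the other 4 entered none. Just outside this limit was Vwf in MPPs with a mean of 0.45 FPKM, and just inside was Pf4 in CD115- CDPs with 0.50 FPKM.

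**Figure D1:**
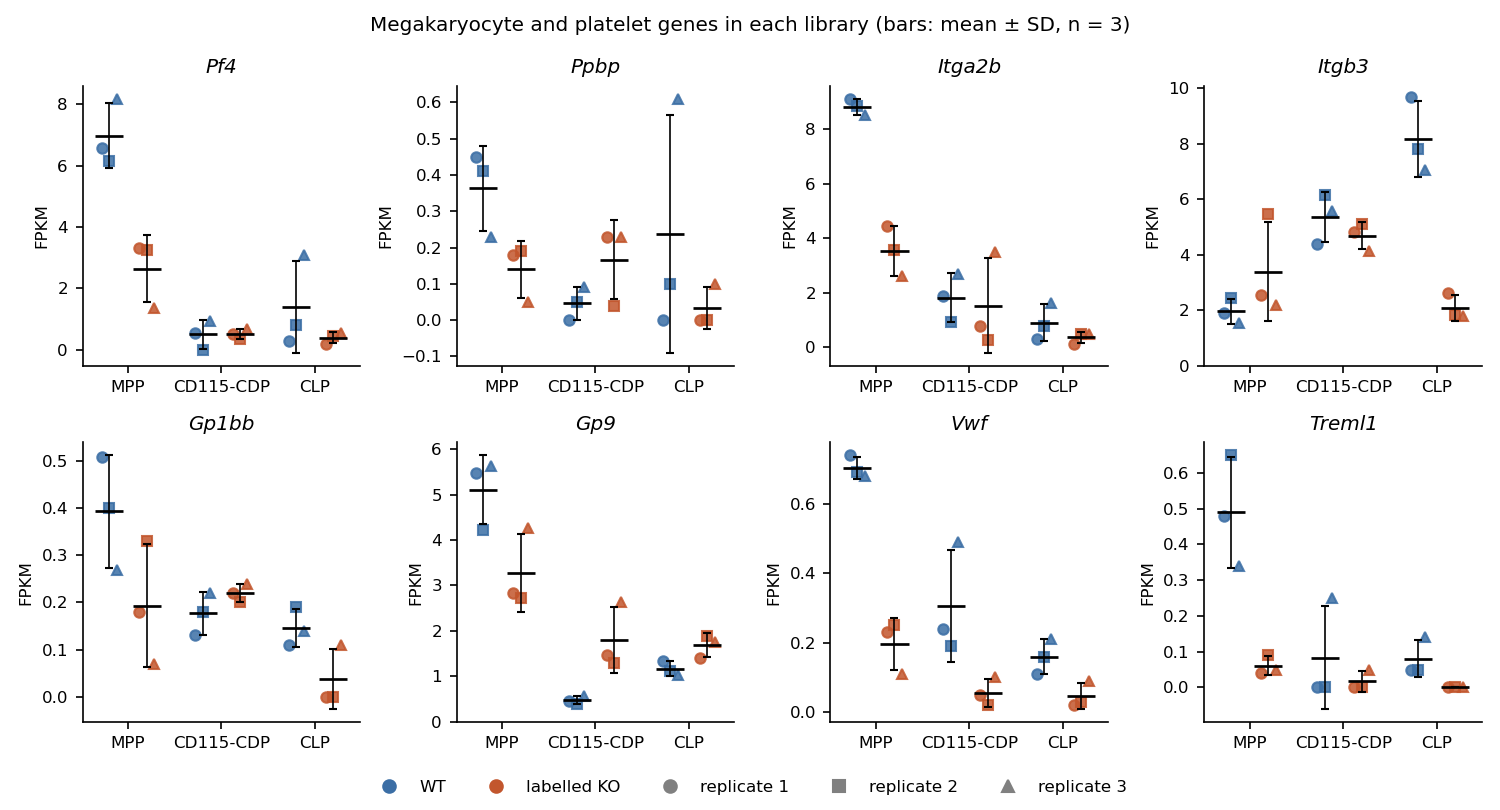
FPKM (vertical axis, linear, a separate scale for each gene) of the 8 genes in every library, by population (horizontal axis). Points are single libraries with the replicate number as the symbol, blue for WT and orange for labelled KO, and black bars give the mean ± SD of 3 libraries. In MPPs the KO-labelled libraries lay below all WT libraries for Pf4, Ppbp, Itga2b, Vwf and Treml1, and in CLPs for Itgb3, Vwf and Treml1.

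In MPPs most members were lower in the libraries labelled KO. Itga2b was called lower, and Pf4, Ppbp, Vwf and Treml1 were lower without overlap between the groups. Itgb3 was the exception, with its mean higher in the KO-labelled libraries. A gene was called when its limma adjusted p was no higher than 0.05 and its log2 fold change, on log2(FPKM + 1), was 1 or more in either direction. By that rule 1 of the 4 tested members was called lower and 0 higher, where 1.32% of all 12372 tested genes were called lower and 0.162% higher. All KO-labelled values lay below all WT values for 5 of the 8 members, and for 19.6% of all genes above 0 in MPPs. In bulk samples such as these, fewer cells of a type and less RNA per cell cannot be told apart.

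Itga2b, the α subunit of the fibrinogen receptor (CD41), was at 9.11, 8.85 and 8.51 FPKM in the WT MPP libraries and at 4.45, 3.56 and 2.63 FPKM in those labelled KO. The WT libraries lay close together and every KO-labelled library lay below them. The mean of the KO-labelled libraries, 3.55 ± 0.910 FPKM (SD, n = 3), was 40.2% of that of WT, 8.82 ± 0.301 FPKM (SD, n = 3). The log2 fold change was -1.13 (SE 0.171, limma adjusted p = 0.0232). This call was lost without any 1 of the WT libraries (limma adjusted p = 0.126 to 0.156) or without KO replicate 2 (limma adjusted p = 0.0725), and without KO replicate 3 the log2 fold change was -0.98 (limma adjusted p = 0.00141), just under the fold limit.

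Itgb3, the β subunit of the same receptor (CD61), which also pairs with αV integrin, went the other way. It was at 1.88, 2.43 and 1.55 FPKM in WT MPPs and at 2.55, 5.46 and 2.17 FPKM in KO-labelled MPPs. KO replicate 2 was the highest, and the groups overlapped. The log2 fold change was 0.51 (SE 0.285, limma adjusted p = 0.298).

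Among the granule genes, Pf4 was at 6.58, 6.16 and 8.18 FPKM in WT MPPs and at 3.31, 3.23 and 1.37 FPKM in KO-labelled MPPs. The groups were separate, with KO replicate 3 lowest. The KO-labelled mean was 37.8% of the WT mean, and the log2 fold change of -1.18 (SE 0.258, limma adjusted p = 0.0608) did not pass the test. Ppbp, the chemokine gene next to Pf4, was at 0.45, 0.41 and 0.23 FPKM in WT and at 0.18, 0.19 and 0.05 FPKM in KO-labelled libraries, which corresponds to an estimated 1 to 10 reads per library. These groups also did not overlap, although WT replicate 3 lay close to KO replicates 1 and 2.

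Vwf, the clotting factor that the platelet receptor binds, was at 0.74, 0.69 and 0.68 FPKM in WT MPPs and at 0.23, 0.25 and 0.11 FPKM in KO-labelled MPPs. Its long transcript gave an estimated 20 to 136 reads per library, and the KO-labelled mean was 28.0% of the WT mean. Treml1 was at 0.48, 0.65 and 0.34 FPKM in WT and at 0.04, 0.09 and 0.05 FPKM in KO-labelled libraries, a mean of 12.2% of WT. Both genes were under the expression limit, and so were not tested. With no limit and a pseudocount of 0.1 in place of 1, a setting chosen after seeing the data, both were called lower: Vwf with a log2 fold change of -1.47 (SE 0.261, limma adjusted p = 0.0471) and Treml1 with -1.86 (SE 0.259, limma adjusted p = 0.0251). At that setting 1.76% of 18369 genes were called lower, and with a block for replicate number as well limma called 0.00% of them, with an adjusted p = 0.129 for Vwf and 0.0985 for Treml1.

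The members that encode subunits of the von Willebrand factor receptor differed less. Gp9 was at 5.48, 4.23 and 5.62 FPKM in WT MPPs and at 2.84, 2.73 and 4.27 FPKM in KO-labelled MPPs. KO replicate 3 reached into the WT range, so the groups overlapped, and the log2 fold change was -0.52 (SE 0.184, limma adjusted p = 0.158). Gp1bb was at 0.51, 0.40 and 0.27 FPKM against 0.18, 0.33 and 0.07 FPKM, also with overlap. Gp1ba and Gp5, further subunits of this receptor that are not members, were lower without overlap, as were 19.6% of all genes above 0. Gp1ba was at 0.63, 0.78 and 0.66 FPKM in WT MPPs against 0.30, 0.26 and 0.38 FPKM. Gp5 was at 0.75, 0.56 and 0.66 FPKM against 0.20, 0 and 0.14 FPKM.

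The median log2 fold change of the 4 tested members in MPPs was -0.83, against -0.11 over all tested genes. Scaling the libraries by median ratios moved the latter to -0.0044 and left the direction of every tested member as it was. Marker genes of other cell types moved with the genotype in the same libraries, where 1.32% of all tested genes were called lower. The summed FPKM of 15 erythroid genes was 553 to 580 in WT and 136 to 189 in KO-labelled MPPs, and 10 of the 14 tested were called lower. That of 9 basophil and mast cell genes was 192 to 217 against 65.6 to 107, with 4 of 7 called lower, and that of 9 neutrophil genes 3481 to 3606 against 1565 to 2584, with 3 of 9 called lower. That of 9 stem cell genes was 104 to 106 against 65.9 to 66.3, with 1 of 6 called lower, and that of 10 endothelial genes 131 to 134 against 82.3 to 92.3, with 2 of 6 called lower, while Cdh5, an endothelial cadherin, was at most 0.11 FPKM. The part of these cell types in the members' values was not tested.

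**Figure D2:**
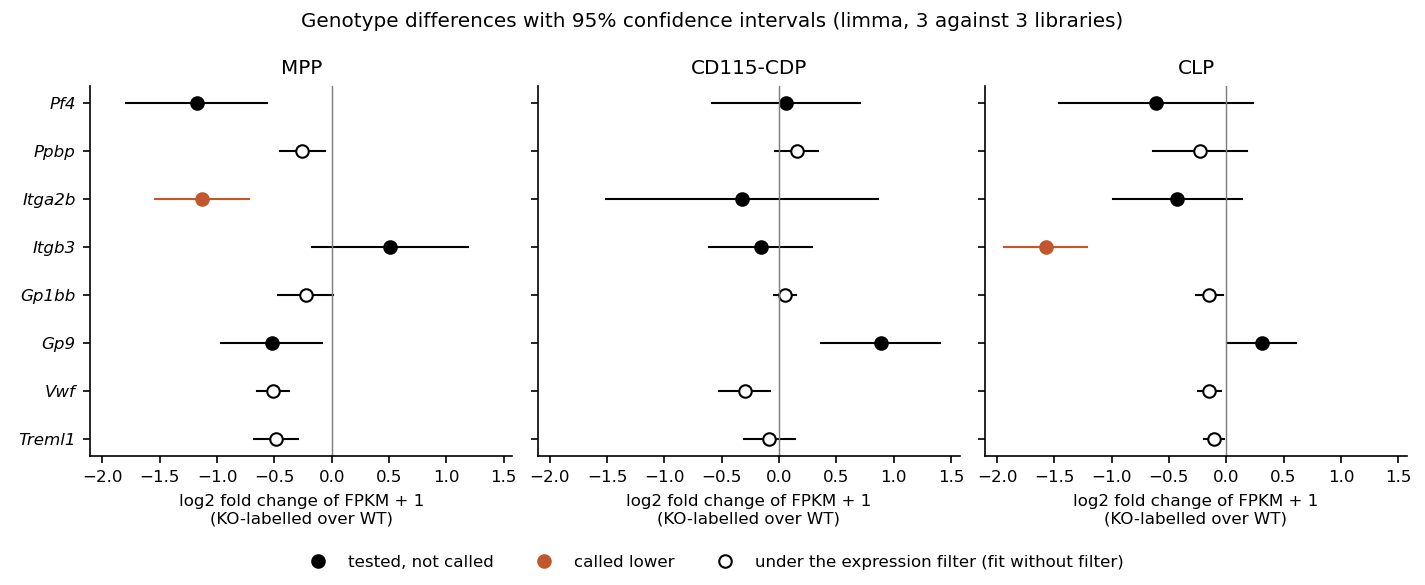
Log2 fold change of FPKM + 1, KO-labelled over WT (horizontal axis), for each gene (vertical axis) in the 3 populations. Bars are 95% confidence intervals of the limma fit on 3 against 3 libraries, orange marks genes called lower, and open circles mark genes under the expression limit, taken from the fit with no limit. Itga2b at -1.13 in MPPs and Itgb3 at -1.58 in CLPs were called, and Gp9 lay to the left of 0 in MPPs and to the right in the other populations.

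In CD115- CDPs no member was called. Gp9 was higher in every KO-labelled library, Vwf was lower in every one, and Itga2b varied more between replicates than between genotypes. Of the 4 tested members, limma called 0, where 0.0654% of 12229 tested genes were called lower and 0.0409% higher. An unadjusted p under 0.05 was found by limma for 1 of the 4 and for 10.5% of all tested genes. The 4 genes under the limit were not tested. All KO-labelled values lay below all WT values for 1 of the 8 members (9.04% of all genes above 0) and above them for 1 (5.76%).

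Gp9 was at 0.47, 0.40 and 0.58 FPKM in WT CD115- CDPs and at 1.47, 1.29 and 2.63 FPKM in KO-labelled CD115- CDPs. The lowest KO-labelled library was above the highest WT library, and the mean was 3.72-fold higher. On the scale of log2(FPKM + 1), which understates changes at this level, the fold change was 0.89 (SE 0.218, limma adjusted p = 0.311). In the fit blocked on replicate number limma gave an adjusted p = 0.0331 (SE 0.169), but the fold change stayed under the limit of 1, so Gp9 was not called. An estimated 7 to 46 reads per library lay behind these values.

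Itga2b was at 1.87, 0.92 and 2.69 FPKM in WT and at 0.79, 0.29 and 3.51 FPKM in KO-labelled CD115- CDPs. The replicate 3 library was the highest of its genotype in both groups, and the groups overlapped. The log2 fold change was -0.32 (SE 0.496, limma adjusted p = 0.879), and -0.63 (limma adjusted p = 0.196) without both replicate 3 libraries. Those libraries also had the highest summed FPKM over the 9 listed neutrophil genes in CD115- CDPs. Itgb3 was even across the libraries, at 4.39, 6.16 and 5.57 FPKM in WT and 4.80, 5.10 and 4.14 FPKM in KO-labelled CD115- CDPs, with a log2 fold change of -0.16 (SE 0.187, limma adjusted p = 0.829).

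Vwf was at 0.24, 0.19 and 0.49 FPKM in WT and at 0.05, 0.02 and 0.10 FPKM in KO-labelled CD115- CDPs. The groups were separate, with an estimated 4 to 88 reads per library. Vwf is also an endothelial gene, and the summed FPKM of the 10 endothelial markers was 91.8 to 104 in WT and 66.0 to 87.4 in KO-labelled CD115- CDPs. Of the 6 tested, limma called 0, and 2 had an unadjusted p under 0.05, where 10.5% of all tested genes did. The estimates were below 0 for 3 of the 6 and above 0 for 3. Pecam1, the largest part of the sum, had a mean of 60.8 FPKM in WT against 38.5 FPKM, while Eng was at 31.8 against 32.2 FPKM and Emcn at 1.32 against 2.03 FPKM. Cdh5 was at 1.44, 0.49 and 0.88 FPKM in WT and at 0.09, 0.08 and 0.06 FPKM in KO-labelled CD115- CDPs. The part of endothelial cells in the Vwf values was not tested. Pf4 was at 0.54, 0 and 0.94 FPKM in WT and at 0.52, 0.33 and 0.67 FPKM in KO-labelled libraries, no more than an estimated 10 reads, and its log2 fold change of 0.06 (SE 0.269, limma adjusted p = 0.971) was within the spread of the replicates. Ppbp, Gp1bb and Treml1 did not exceed 0.25 FPKM in any CD115- CDP library, and Treml1 was listed at 0 in WT replicates 1 and 2 and in KO replicates 1 and 2.

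In CLPs Itgb3 was called lower, with the largest log2 fold change of the tested members in any population. Vwf and Treml1 were lower without overlap, and Gp9 was higher without overlap. limma called 1 of the 4 tested members lower and 0 higher, where 2.84% of 12339 tested genes were called lower and 0.673% higher. All KO-labelled values lay below all WT values for 3 of the 8 members (15.2% of all genes above 0) and above them for 1 (11.8%).

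Itgb3 was at 9.67, 7.80 and 7.04 FPKM in the WT CLP libraries and at 2.61, 1.83 and 1.79 FPKM in those labelled KO. Every WT library was more than 4 FPKM above every KO-labelled library. The mean of the KO-labelled libraries, 2.08 ± 0.462 FPKM (SD, n = 3), was 25.4% of that of WT, 8.17 ± 1.35 FPKM (SD, n = 3). The log2 fold change was -1.58 (SE 0.158, limma adjusted p = 0.000387). Itgb3 was called in each of the 6 fits that left out 1 library, with log2 fold changes from -1.70 to -1.46. Its long transcript gave an estimated 198 to 1069 reads per CLP library, so this difference rests on more reads than any other of a member in CLPs.

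The partner of Itgb3 did not move with it beyond the replicate spread. Itga2b was at 0.32, 0.77 and 1.64 FPKM in WT and at 0.14, 0.49 and 0.49 FPKM in KO-labelled CLPs, a log2 fold change of -0.43 (SE 0.246, limma adjusted p = 0.290) with overlap. Itgav, the other α subunit that pairs with Itgb3, was at 1.96 ± 0.566 FPKM in WT CLPs against 2.05 ± 0.545 FPKM in those labelled KO (SD, n = 3). Myl4, the gene next to Itgb3 at lower coordinates, was at 34.5 ± 7.77 FPKM in WT CLPs against 67.6 ± 7.41 FPKM in those labelled KO (SD, n = 3), opposite in direction to Itgb3. Neighbours of other members went both ways in MPPs. Fam171a2, next to Itga2b, was lower like it, at 3.34 ± 0.114 FPKM in WT against 1.63 ± 0.259 FPKM. Trem2, next to Treml1, was also lower, at 0.667 ± 0.222 against 0.0167 ± 0.0289 FPKM. Cxcl3, next to Pf4, had a mean that was higher, at 0.597 ± 0.178 against 1.51 ± 1.14 FPKM.

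Pf4 was at 0.27, 0.80 and 3.09 FPKM in WT CLPs and at 0.18, 0.44 and 0.54 FPKM in KO-labelled CLPs, and Ppbp was at 0, 0.10 and 0.61 against 0, 0 and 0.10 FPKM. WT replicate 3 was the highest library for both and for Itga2b, and all 3 genes overlapped between the groups. The log2 fold change of Pf4 was -0.61 (SE 0.371, limma adjusted p = 0.316). Gp9 was at 1.35, 1.12 and 1.03 FPKM in WT and at 1.40, 1.90 and 1.76 FPKM in KO-labelled CLPs, a log2 fold change of 0.31 (SE 0.132, limma adjusted p = 0.160). The groups did not overlap, although KO replicate 1 lay close to WT replicate 1. An estimated 17 to 32 reads per library lay behind the Gp9 values.

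Vwf was at 0.11, 0.16 and 0.21 FPKM in WT and at 0.02, 0.03 and 0.09 FPKM in KO-labelled CLPs, an estimated 3 to 38 reads per library. Vwf was the only member whose KO-labelled values lay below all WT values in all 3 populations, a pattern found for 1.80% of the 17329 genes above 0 in every table. Treml1 was at 0.05, 0.05 and 0.14 FPKM in WT CLPs and was listed at 0 in all 3 libraries labelled KO. Gp1bb was at 0.11, 0.19 and 0.14 FPKM in WT and at 0, 0 and 0.11 FPKM in KO-labelled CLPs. Erythroid markers were lower here too, with a summed level of 55.7 to 75.4 FPKM in WT and 27.3 to 41.1 FPKM in KO-labelled CLPs. Of the 8 tested, 3 were called lower, where 2.84% of all tested genes were. The endothelial markers summed to 118 to 135 against 79.6 to 86.1 FPKM (1 of 5 tested was called lower), and Cdh5 was at 18.5 ± 2.29 against 0.247 ± 0.0115 FPKM (SD, n = 3). They did not move as one: 3 of the 5 estimates were below 0 and 2 above. Emcn had a mean of 1.51 FPKM in WT against 2.11 FPKM, and Plvap 3.23 against 3.85 FPKM. Kdr, Tek and Cldn5 did not exceed 0.17 FPKM in any CLP library. The neutrophil markers summed to 424 to 993 FPKM in WT and 241 to 414 FPKM in KO-labelled CLPs. Of these 9 genes limma called 0, with 7 at an unadjusted p under 0.05, where 29.6% of all tested genes were. With the replicate block limma called 6 lower, where 3.11% of all tested genes were called lower. The basophil and mast cell markers summed to 4.31 to 27.3 against 3.08 to 10.8 FPKM, with overlap. Whether these cell types had a part in the members' values was not tested.

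Whether the genotype difference of a member differed between the populations was tested with limma over all 18 libraries, as an interaction with an intercept for each population. It passed an adjusted p of 0.05 for 2 of the 4 tested members, Itgb3 and Gp9, and for 2.45% of all 12421 tested genes. For Itgb3 (limma adjusted p = 0.00506) CLPs differed from the other populations, with a log2 fold change lower than in MPPs (difference -2.09, SE 0.323) and than in CD115- CDPs (difference -1.42, SE 0.323). For Gp9 (limma adjusted p = 0.0163) the log2 fold change was higher than in MPPs by 1.41 in CD115- CDPs (SE 0.252) and by 0.83 in CLPs (SE 0.252). The Gp9 result was lost without MPP WT replicate 1 or 3 or MPP KO replicate 1 or 2 (limma adjusted p = 0.0580 to 0.0618). Pf4 (limma adjusted p = 0.380) and Itga2b (limma adjusted p = 0.590) did not pass, so a genotype difference of Itga2b particular to MPPs was not shown. With a block for replicate number the share of all genes that passed was 8.67%, and Itgb3 and Gp9 passed again.

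Other genes of the lineage were read from the same fits as 3 lists of surface receptors, of granule and secreted proteins, and of cytoskeleton and signalling, 51 genes together. In MPPs 4 of the 39 tested were called lower and 0 higher, where 1.32% of all tested genes were called lower and 0.162% higher. The median log2 fold change was -0.26 over the list and -0.11 over all tested genes, and 31 of the 39 estimates were below 0, as were 63.0% of all tested genes. Esam, an adhesion molecule of platelets and endothelium, was at 3.07, 2.98 and 3.20 FPKM in WT MPPs against 1.34, 0.77 and 0.73 FPKM in those labelled KO. The groups were separate, with a log2 fold change of -1.08 (SE 0.150, limma adjusted p = 0.0182).

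Of the granule and secreted genes, F13a1, the A subunit of clotting factor XIII, was at 14.21, 13.95 and 11.53 FPKM in WT MPPs against 2.20, 2.24 and 2.48 FPKM in those labelled KO (log2 fold change -2.10, SE 0.131, limma adjusted p = 0.00182). Mmrn1, the carrier of factor V in α-granules, had a log2 fold change of -1.51 (SE 0.149, limma adjusted p = 0.00617). Gng11 had one of -1.28 (SE 0.179, limma adjusted p = 0.0185). It stands in this list although its product is a G protein γ subunit, neither a granule nor a secreted protein. F13a1 is also transcribed in monocytes. Of the 12 tested cytoskeleton and signalling genes limma called 0 in MPPs, and 2 had an unadjusted p under 0.05, where 24.2% of all tested genes did. Without KO replicate 3 the 3 lists together had 7 genes called, 6 lower and 1 higher. They had 1 to 2 without 1 of the WT libraries or KO replicate 2. The share of all genes called was not taken in these fits. These counts thus show how the calls depend on single libraries and are not a result about the lists.

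In CD115- CDPs limma called 0 of the 36 tested genes of these lists, and 1 had an unadjusted p under 0.05, where 10.5% of all tested genes did. With the replicate block, where 1.46% of all tested genes were called lower and 0.376% higher, 2 were called: F13a1 lower, with a log2 fold change of -2.34 (SE 0.118, limma adjusted p = 0.000816), and Ctla2a higher, with 1.10 (SE 0.245, limma adjusted p = 0.0454). F13a1 was far higher in WT replicate 3, at 261.79 FPKM, than in WT replicates 1 and 2, at 45.87 and 26.21 FPKM. In CLPs limma called 1 of the 34 tested genes higher and 0 lower. Of all tested genes there, 0.673% were called higher and 2.84% lower. The called gene was Ctla2a, an inhibitor of cysteine proteases. It was at 32.87, 26.46 and 32.33 FPKM in WT and at 56.53, 67.65 and 93.66 FPKM in KO-labelled libraries (log2 fold change 1.20, SE 0.180, limma adjusted p = 0.00321). With the replicate block, where 3.11% were called lower and 0.746% higher, Sparc, a secreted matrix protein, was called as well (log2 fold change -2.84, SE 0.768, limma adjusted p = 0.0353), on WT values of 0.42, 38.25 and 45.33 FPKM.

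**Figure D3:**
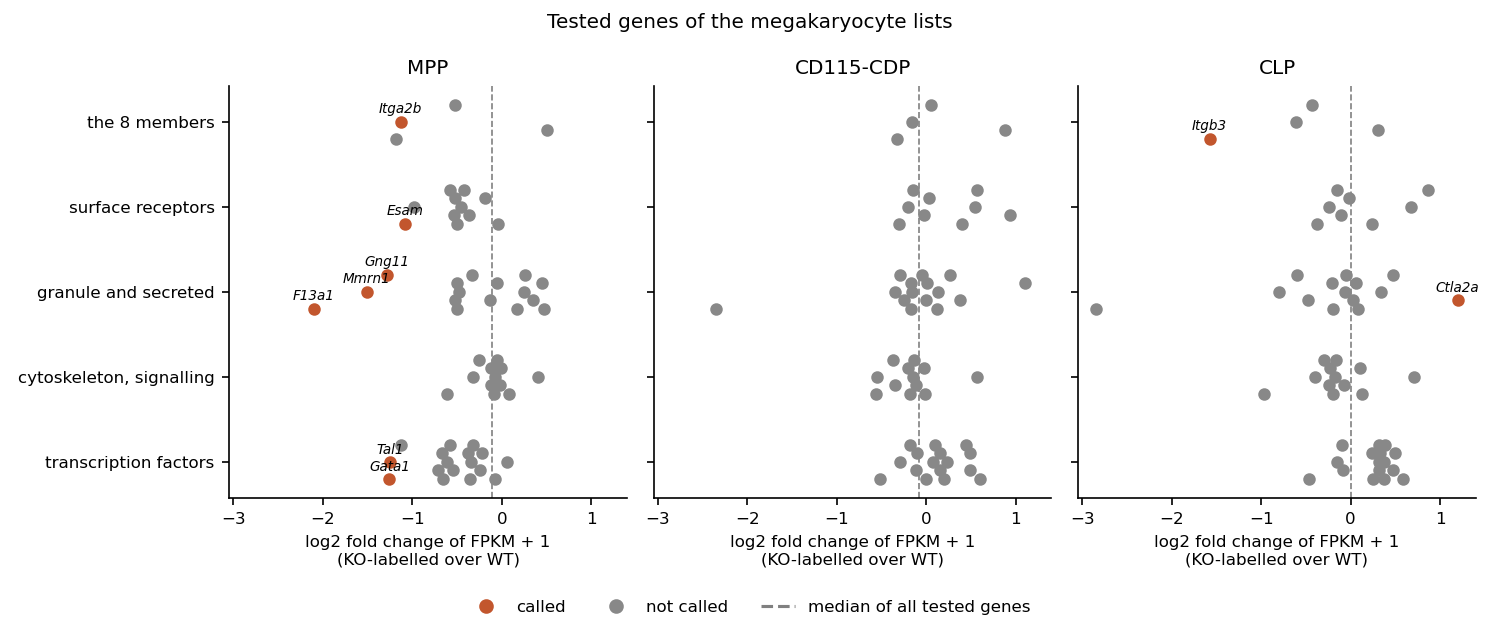
Log2 fold change of FPKM + 1, KO-labelled over WT (horizontal axis), of each tested gene of the 8 members, the 3 further lists and the transcription factors (rows), by population. Each point is a gene, shifted vertically only to separate points, orange where called by limma, and the dashed line is the median of all tested genes. The called genes of MPPs all lay to the left of the line, with F13a1 farthest, at -2.10.

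Of the transcription factors of the lineage, 2 of 17 tested were called lower in MPPs and 0 higher. Of all tested genes 1.32% were called lower there and 0.162% higher. Below 0 were 16 of the 17 estimates (63.0% of all tested genes), with a median log2 fold change of -0.54, against -0.11 over all tested genes. Gata1, the master regulator of red cells and megakaryocytes, was at 2.07, 2.44 and 2.43 FPKM in WT and at 0.31, 0.30 and 0.56 FPKM in KO-labelled MPPs (log2 fold change -1.26, SE 0.125, limma adjusted p = 0.00617). Tal1, its partner in a shared complex, was at 16.25, 16.20 and 16.95 against 6.18, 4.51 and 9.06 FPKM (log2 fold change -1.25, SE 0.219, limma adjusted p = 0.0350). Without KO replicate 3 the number called was 5, and without WT replicate 2 or 3 it was 0, again with no share over all genes taken. In CD115- CDPs limma called 0 of 16, and 1 had an unadjusted p under 0.05, where 10.5% of all tested genes did. In CLPs it called 0 of 16, and 7 had an unadjusted p under 0.05, 1 of them lower and 6 higher, where 16.2% of all tested genes were lower and 13.4% higher by that measure. In CLPs 12 of the 16 estimates were above 0 (51.2% of all tested genes), with a median log2 fold change of 0.32, against 0.0080 over all tested genes. Of 3 further integrin subunits, Itgb5, which pairs with αV, was called lower in MPPs, at 20.4 ± 0.994 FPKM in WT against 8.96 ± 1.89 FPKM in KO-labelled libraries (SD, n = 3, log2 fold change -1.12, SE 0.164, limma adjusted p = 0.0211), and Itgav and Itgb1 were not called in any population.

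The members also varied between replicates of one group, and not all in the same way. The deviation of each library from its group mean, on log2(FPKM + 1), was correlated between genes over the 18 libraries as a description. Libraries of one population share a table and a sorting gate, and sparse genes add noise. Pf4 went with Ppbp (Pearson r = 0.761), Vwf (0.725) and Itga2b (0.691), and Itga2b with Vwf (0.689). Itgb3 did not go with Itga2b (r = -0.310) or Pf4 (-0.179), and Gp9 did not go with Pf4 (-0.123) or Vwf (0.050). The fibrinogen receptor subunits thus did not vary together within groups.

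Of 12421 genes, those whose deviations were most like Itga2b were Cpa3 (r = 0.945), a mast cell protease, and Gata2 (0.943). Gata2 is one of the listed transcription factors of the megakaryocyte lineage, and also one of stem cells and mast cells. For the mean of the 8 members, all genes of the marker and lineage lists were left out of the ranking. The genes most like it were then Mt1 (0.886), a metallothionein, Hdc (0.856), the histamine-forming enzyme, Ms4a3 (0.841), a gene of granulocyte and monocyte progenitors, Gpx3 (0.814) and Serpinf1 (0.813). With no gene left out, for Itgb3 they were Dync1li1 (0.903) and Inf2 (0.893), for Gp9 Srr (0.939) and Snapin (0.926), and for Vwf Plau (0.921) and Atg3 (0.904). For Pf4 they were Tcstv3 (0.827) and Ifitm1 (0.806), for Ppbp Pf4 (0.761) and Fam43a (0.748), for Treml1 Pilrb2 (0.804) and F10 (0.790), and for Gp1bb 1700066M21Rik (0.786) and Sash1 (0.785). The replicate 3 libraries of CD115- CDPs weighed on the pattern of Itga2b: in the WT and KO-labelled one, Gata2 was at 7.40 and 13.51 FPKM and Cpa3 at 7.83 and 22.91 FPKM, each the highest of its genotype. The list of basophil and mast cell genes was likewise highest in these 2 libraries within genotype, at a summed 154 and 130 FPKM.

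**Figure D4:**
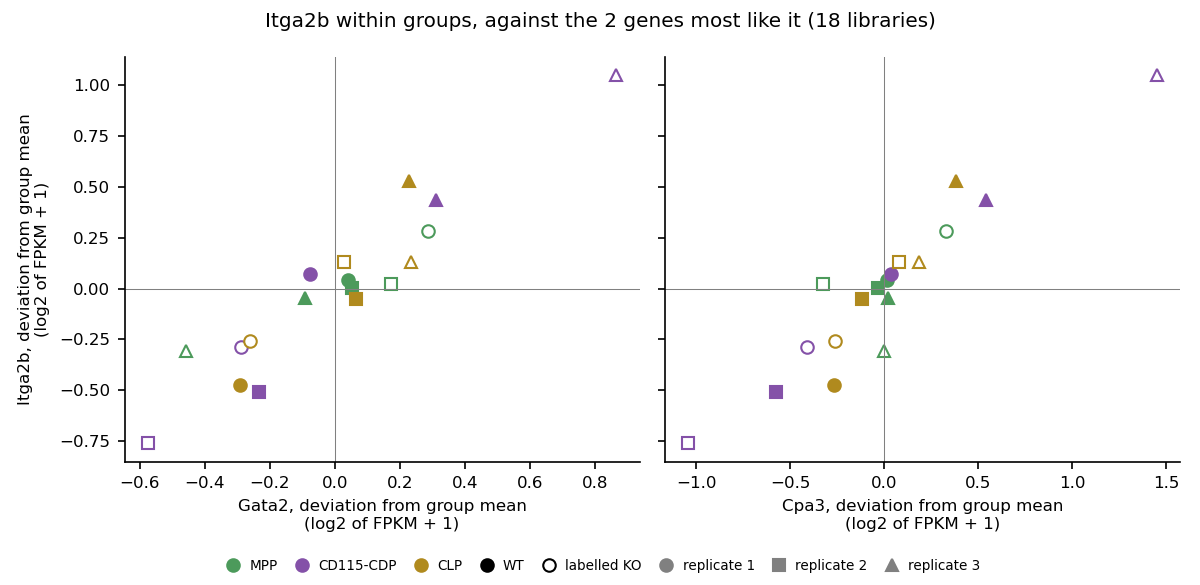
Deviation of Itga2b from its group mean (vertical axis) against that of Gata2 and of Cpa3 (horizontal axes), on log2(FPKM + 1), for 18 libraries. Colour gives the population, filled points are WT and open points labelled KO, and the symbol gives the replicate. The KO replicate 3 library of CD115- CDPs (Itga2b at 3.51 FPKM) is the point at the upper right, and KO replicate 2 of the same population (0.29 FPKM) the point at the lower left.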

How the data were processed

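RNA-seq was done on MPPs, CD115- CDPs and CLPs, 3 WT and 3 KO libraries each. The authors sequenced single-end 50-base reads, aligned them with HISAT2 2.0.4 and, for expression, with Bowtie2 2.2.5 to a transcript reference, and deposited RSEM 1.2.12 values per gene as FPKM, in 1 table per population, on mm10. Raw counts were not used here, and whole reads could not be assigned with certainty: 17 of 32 small estimates lay within 0.2 of a whole number. Genotypes were taken from the sample titles. Within each population limma 3.58.1 (R 4.3.3, trend) was fitted to log2(FPKM + 1) over genes whose mean reached 0.5 FPKM, with Benjamini-Hochberg adjustment over all of them. A member can pass this limit through the group where it is high. The scripts were tested on simulated data. Same-numbered libraries deviated together in CD115- CDPs (correlations 0.437, 0.671 and 0.790) and CLPs (0.400, 0.329 and 0.131), not in every pair of MPPs. Some differently numbered pairs did so about as much. In CD115- CDPs the correlation was 0.663 for WT replicate 2 with KO replicate 1, and 0.381 for WT replicate 1 with KO replicate 2. In CLPs it was 0.234 for WT replicate 3 with KO replicate 2. Whether equal numbers mark pairs is thus not shown. The blocked fit is given only as an alternative, in CD115- CDPs and CLPs where it changed a call of a reported gene or list. Alternatives were the pseudocount, the limit, the scaling, the trend, the block, the fold limit and leaving out libraries. Named genes were the members, list genes called in any population with or without the block, neighbours in the genome, Trim33, defining marker genes, and the genes most like each member. Gp6, Clec1b, Pear1, Cd9, Tbxa2r, Itgav and Itgb1 were called nowhere, and were named after their values were seen. Gp1ba and Gp5 were likewise named after their values were seen. A gene of these lists is not reported here. The members and lists were chosen with earlier results of these data known.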

Additional observations from a re-analysis of the deposited data

Results flagged for a closer look

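The genotype difference of 2 members differed between populations by a test of the difference itself. For Itgb3 (limma interaction, adjusted p = 0.00506) the log2 fold change was -1.58 in CLPs, -0.16 in CD115- CDPs and 0.51 in MPPs. For Gp9 (limma interaction, adjusted p = 0.0163) it was 0.89 in CD115- CDPs, 0.31 in CLPs and -0.52 in MPPs, and that result was lost without any 1 of 4 MPP libraries. Groups of 3 libraries are too small for a check of single outlying samples.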

How the results depend on the processing

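Itgb3 in CLPs was called lower in every alternative run. Itga2b in MPPs was lower in every one, but the number of members called in MPPs ranged from 0 to 1 when single libraries were left out, and was 3 with no expression limit and a pseudocount of 0.1, and 0 with the replicate block as well. Both of these settings were chosen after seeing the data. With single libraries left out, the number of genes called ranged from 1 to 7 for the further list and from 0 to 5 for the transcription factors in MPPs, from 1 to 3 for the further list in CLPs, and from 1 to 2 for members with an interaction. The fit with the replicate block called 2 genes of the further list in CD115- CDPs and 2 in CLPs, and changed the call of no member (in MPPs 1 called, 1.52% of all tested genes). Of the marker lists, it took the neutrophil genes called lower from 3 to 2 in MPPs and from 0 to 6 in CLPs, the basophil and mast cell genes from 0 to 2 in CD115- CDPs and from 0 to 1 in CLPs, and the erythroid genes in CD115- CDPs from 0 to 1 lower and 1 higher. The block combined with no limit and a pseudocount of 0.1 gave 0, 1 and 2 genes of the further list in MPPs, CD115- CDPs and CLPs, and 0 transcription factors in MPPs. With a limit of 5 FPKM the further list had 1 gene called and the transcription factors 0 in MPPs. In CLPs the further list had 3 called with a pseudocount of 0.1, 2 after rescaling to TPM, 2 with no limit and a pseudocount of 0.1, and 6 with no minimum fold. With no minimum fold the transcription factors had 4 called in MPPs and 4 in CLPs, and with no limit and a pseudocount of 0.1 they had 1 in MPPs. The directions were not alike in the main fit. Of the transcription factors with an unadjusted limma p under 0.05, 8 of 8 were lower in MPPs and 1 of 7 in CLPs. Without both CD115- CDP replicate 3 libraries the further list had 1 called there. In CD115- CDPs the log2 fold change of Pf4 was -0.20 without WT replicate 2 and 0.15 in the only other of the 6 fits without a library in which it reached the limit, and that of Itga2b ranged from -0.85 to 0.058 and was above 0 without KO replicate 2. Counts given here without the share of all genes show how calls depend on the setting, and are not a result about the lists. The causes were not tested. Depth limits Ppbp and, outside MPPs, Pf4, Gp9 and Vwf, which rest on few estimated reads. Reads were not estimated for Treml1 and Gp1bb, which were at most 0.65 FPKM.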
